A study of Rattus norvegicus with 42 samples.

Results

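Insig1 and Insig2, the paired genes of the INSIG proteins, were followed in rat liver through the readouts of glucocorticoid receptor (GR) binding, elongating RNA polymerase II and mRNA. The genes were chosen by their opposite differences in elongating polymerase between the peak and the nadir of a corticosterone (CORT) pulse, so those polymerase values are given as a description with no test. They were 2 of 26258 named genes, and were covered by 4 polymerase regions of 60999, by 2 of 22929 genes in the RNA count table and by the 9 GR regions of 3981 that were centred within 50 kb of either transcription start site (TSS). Of the GR regions, 8 lay near Insig1 and 1 near Insig2.

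The rats were male, adrenalectomised Sprague Dawley animals. Every group, vehicle included, lacked adrenal glands and had received a low dose of CORT in its drinking water during recovery, withdrawn before the infusion. After surgery the rats were also given dexamethasone, a synthetic glucocorticoid, and the analgesic carprofen under the skin. The age of the rats was not given in the sources used here. CORT, carried by cyclodextrin in saline, was infused intravenously for 3 hr either as pulses (PULS, 20 min of each hour at 1 ml per hr) or constantly (CONS, 0.333 ml per hr), with the dose matched by the hour. Livers for chromatin immunoprecipitation (ChIP) were taken at 140 min, the third pulse peak, and at 180 min, the nadir, which gave PEAK_140, NADIR_180, CONS_140 and CONS_180 with 2 libraries each. The vehicle group (VEH) held 1 library at 140 min and 1 at 180 min, both from pulsatile infusion of the carrier, and each ChIP library pooled 6 rats. All 4 comparisons against VEH share these VEH libraries. In the sample labels, the pulsatile CORT libraries of GR carry numbers apart from those of VEH and the constant groups. The same holds for elongating polymerase, except that PEAK_140 2 is numbered close to VEH. In RNA the CORT livers carry lower numbers than the vehicle livers. What these numbers stand for is not stated, and their part in the results was not tested. RNA was sequenced at 180 min only, from 3 livers each in PULS CORT, CONS CORT, PULS VEH and CONS VEH.

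INSIG proteins sit in the membrane of the endoplasmic reticulum. When sterols are plentiful they hold back SCAP, the escort of the sterol regulatory element binding proteins (SREBPs), so that SREBPs are not carried to the Golgi and cleaved, and they bind ubiquitin ligases of the endoplasmic reticulum. Insig1 is itself a target gene of SREBPs, whereas Insig2 is known in liver for a transcript that is lowered by insulin.

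The bases upstream of Insig1 are shown because a GR region overlapped the start site of the gene on build rn6. RefSeq on build GRCr8 places the gene on the minus strand of chromosome 4, and the 207 bases before its outermost annotated start (chr4:8057813-8058019) are printed with matches to the CACGTG and CCAAT motifs in capitals. All other coordinates are on rn6, where the gene is on the plus strand, and no position was carried from one build to the other. Whether the GR region overlaps the start used for these bases was therefore not established.

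Insig1 upstream: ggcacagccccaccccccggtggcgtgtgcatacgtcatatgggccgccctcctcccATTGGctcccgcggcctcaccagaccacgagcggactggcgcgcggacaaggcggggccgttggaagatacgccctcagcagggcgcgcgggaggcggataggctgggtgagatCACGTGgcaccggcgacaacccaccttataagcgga

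The window was 69.1% G or C, against a median of 50.7% over the windows of the same length, and 91% of those windows lay below it. Searched on both strands, CACGTG occurred 1 time, starting 36 bases before the start, and was present in 4.4% of 33469 windows. CCAAT occurred 1 time, in the reverse orientation, 150 bases before the start, and was present in 29.6% of windows. AGAACA, a core hexamer of GR elements, found in 14.7% of windows, and TCACNCCAC, a spelling of the sterol regulatory element found in 0.81%, were not among these letters.

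Motif matches in the distal Insig1 regions are shown because these regions carried the GR signal described below. They were taken from the study's motif table (build rn6), and 5 matches in 3 of the 9 regions are shown. They are written 5′ to 3′ in the orientation of each motif, with the letters that fit the motif's consensus in capitals.

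-22.7 kb, GRE motif, minus strand: AGAACtGTCTGT
-22.7 kb, CEBPA motif, plus strand: TCcTTaCAaAAT
-30.1 kb, CEBPA motif, plus strand: TGtTTGCctAAT
-32.6 kb, HNF4a motif, plus strand: aGCCAgAGGgCA
-32.6 kb, HNF4a motif, minus strand: GcTCAgAGaTCA

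In the region at -22.7 kb, 11 of 12 letters fitted the GR response element (GRE). A match is a description of the letters, and for the remaining 6 regions none is printed.

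The GR libraries held 2051977 to 6715803 tags, the pSer2 Pol2 libraries 4938473 to 9326927 tags and the RNA libraries 3956379 to 7777219 reads in genes. All 6 hepatocyte markers were measured, and their summed level was 138000 to 183000 CPM (reads scaled to a common library size) over the 12 RNA libraries, against 221 to 394 CPM for 5 Kupffer cell markers, 250 to 340 CPM for 4 endothelial markers, 153 to 275 CPM for 5 stellate cell markers and 8.1 to 14.2 CPM for cholangiocyte markers, of which Krt19 was at 0. Lymphocyte markers reached 1.26 CPM and adipocyte markers 0.412 CPM, with Lep at 0. The summed stellate cell markers were lower in CORT than in vehicle livers of both patterns, with no overlap. They stood at 217 to 275 CPM in PULS VEH against 153 to 192 in PULS CORT. In the constant groups they stood at 189 to 226 in CONS VEH against 159 to 186 in CONS CORT. This difference was not tested, the single markers are not given here, and the share of genes that separate likewise was not counted. The part of these markers in the RNA results was not tested. In bulk liver, fewer cells of a type and less RNA per cell cannot be told apart.

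Elongating polymerase was measured as pSer2 Pol2, RNA polymerase II phosphorylated at a serine of its tail during elongation. The deposited values are moderated log2 tag numbers, normalised by the authors to total tags and summed over the gene body up to 10 kb from the TSS. Insig1 (ENSRNOG00000006859) was measured over chr4:342302-350515 on the plus strand (8214 b), and Insig2 (ENSRNOG00000002478) over chr13:37277458-37287458 on the minus strand (10001 b). Each gene had a gene row and a transcript row with the same interval, so the 4 rows hold 2 distinct intervals.

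pSer2 Pol2 at Insig1 was 10.22 and 10.01 (log2) in the VEH libraries, 10.62 and 10.84 at PEAK_140, and 7.61 and 7.49 at NADIR_180. It was 10.95 and 10.64 at CONS_140 and 10.51 and 10.22 at CONS_180. Both NADIR_180 libraries lay far below the other 8. Both PEAK_140 and both CONS_140 libraries lay above VEH, and the lower CONS_180 library stood level with the higher VEH library. For pSer2 Pol2, here and below, the share of all genes whose groups separate likewise was not counted. Such a separation is a description.

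pSer2 Pol2 at Insig2 was 9.93 and 9.59 in the VEH libraries, 6.69 and 6.75 at PEAK_140, and 9.23 and 9.72 at NADIR_180. It was 9.32 and 9.10 at CONS_140 and 8.57 and 8.49 at CONS_180. Here PEAK_140 was the group that stood far below the rest, NADIR_180 overlapped VEH, and both constant groups lay below VEH without overlap. This lack of overlap is likewise a description.

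**Figure D1:**
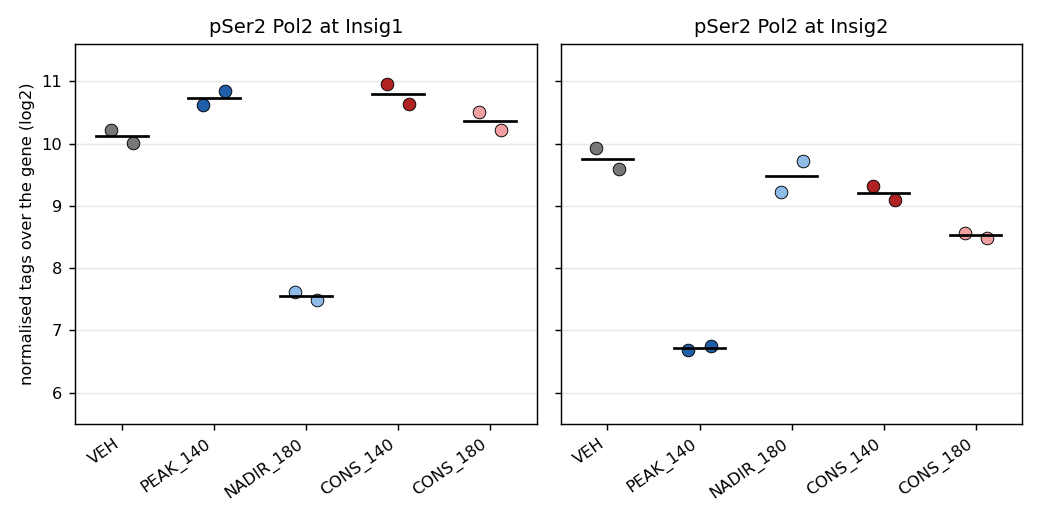
pSer2 Pol2 (log2 normalised tags over the gene, vertical axis) at Insig1 (left) and Insig2 (right) in the 5 ChIP groups. Points are the 2 libraries of a group and bars their mean. Insig1 was lowest at NADIR_180 (7.61 and 7.49) and Insig2 at PEAK_140 (6.69 and 6.75).

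The Insig1 difference between PEAK_140 and NADIR_180 was 3.18 on the log2 scale (SE 0.27), a 9.07-fold higher level at the peak, and 7 of 16500 genes with tags had a larger difference. For Insig2 the same difference was -2.76 (SE 0.31), a 6.76-fold lower level at the peak, with 15 genes lower. The median over all genes was -0.08. These differences chose the genes and are not support for them.

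Against VEH, Insig1 was 0.61 higher at PEAK_140 and 2.57 lower at NADIR_180 (log2 difference -2.57), 5.92-fold, with 6 genes lower. Insig2 was -3.04 at PEAK_140, 8.21-fold lower, with 26 genes lower, and -0.28 at NADIR_180. So each gene departed from VEH by more than 2 log2 units at 1 of the pulsatile times only. For Insig1 this was the nadir and for Insig2 the peak. The replicate SD within groups was 0.17 for Insig1 and 0.21 for Insig2. The PEAK_140 and NADIR_180 values chose the genes, so these departures and ranks are a description and not support for them.

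Under constant infusion the differences were smaller. Insig1 differed from VEH by 0.68 at CONS_140 and 0.25 at CONS_180, and Insig2 by -0.55 and -1.23, the last a 2.35-fold lower level. The change from 140 to 180 min had the same sign for both genes, 0.43 higher at CONS_140 for Insig1 and 0.68 for Insig2, where the median over all genes was 0.17.

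The 2 VEH libraries differ in time, so each group was also set against the VEH library of its own time. Insig1 then stood at 0.51 for PEAK_140, -2.46 for NADIR_180, 0.58 for CONS_140 and 0.35 for CONS_180. Insig2 stood at -3.21, -0.11, -0.72 and -1.06 in the same order. From 140 to 180 min VEH itself moved by -0.21 for Insig1 and -0.35 for Insig2, so the order of the groups was the same with either VEH reference.

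The patterns differed most at 180 min for Insig1 and at 140 min for Insig2. Insig1 was 2.82 higher at CONS_180 than at NADIR_180 (7.04-fold) and -0.07 at PEAK_140 relative to CONS_140. Insig2 was -2.49 at PEAK_140 relative to CONS_140 and -0.95 at CONS_180 relative to NADIR_180. The time difference in PULS minus that in CONS was 2.75 (SE 0.38) for Insig1 and -3.44 (SE 0.43) for Insig2.

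Within a library, log2 Insig1 minus log2 Insig2 was 0.29 and 0.43 in VEH, 3.92 and 4.10 at PEAK_140, and -1.62 and -2.23 at NADIR_180. It was 1.63 and 1.55 at CONS_140 and 1.94 and 1.74 at CONS_180. The 2 regions differ in length, so the zero of this difference has no meaning of its own. A scaling that shifts all log2 values of a library alike leaves the difference as it is, whereas quantile normalization can change it. On the deposited values the difference was above VEH in all 6 libraries of PEAK_140 and the constant groups and below VEH in both NADIR_180 libraries.

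GR binding was measured as log2 normalised tags in regions that the authors called over input. Differences are from limma fitted to all 3981 regions, and the call asked for a change over 1.5-fold together with an adjusted p (Benjamini-Hochberg) under 0.05. A value under 0 stands for under 1 normalised tag, and a difference from such a VEH value is a fitted value and not a bound. In the study's peak lists, no region near either gene was called at NADIR_180 or in VEH.

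The 3 Insig1 regions with the highest GR at PEAK_140 were the intergenic regions at -22.7 kb (chr4:319284-319909), -13.6 kb (chr4:328341-329110) and -40.8 kb (chr4:301161-301786), and the first pair was in the peak lists of PEAK_140, CONS_140 and CONS_180. At -13.6 kb GR was -0.60 and -0.79 in VEH, 6.21 and 6.29 at PEAK_140, -0.53 and -0.35 at NADIR_180, 5.88 and 5.65 at CONS_140, and 5.67 and 5.49 at CONS_180. The 6 libraries of PEAK_140 and the constant groups stood far above VEH and NADIR_180, and both NADIR_180 libraries lay just above VEH, at under 1 normalised tag.

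Against VEH the -13.6 kb region was 6.94 higher at PEAK_140 (adjusted p = 1.4e-05, limma), 6.46 higher at CONS_140 (adjusted p = 2.2e-05) and 6.28 higher at CONS_180 (adjusted p = 3.5e-05). At NADIR_180 it differed by 0.25 (adjusted p = 0.91). PEAK_140 exceeded NADIR_180 by 6.69 (adjusted p = 0.00018) and CONS_180 exceeded NADIR_180 by 6.02 (adjusted p = 0.00058), so GR and pSer2 Pol2 at Insig1 were both lower at NADIR_180 than at CONS_180.

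At -22.7 kb, the region with the GRE match, GR was 1.93 and 0.53 in VEH, 6.69 and 6.63 at PEAK_140, and -0.37 and -0.19 at NADIR_180. It was 6.42 and 6.14 at CONS_140 and 5.58 and 6.09 at CONS_180. NADIR_180 lay below both VEH libraries by -1.51 on average (adjusted p = 0.18, limma, and called at -2.21 without VEH 2, adjusted p = 0.042), and the other groups lay above them, by 5.42 at PEAK_140 (adjusted p = 6.6e-05), 5.05 at CONS_140 (adjusted p = 0.00013) and 4.60 at CONS_180 (adjusted p = 0.00023).

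The region at -40.8 kb was in the peak lists of PEAK_140 and CONS_180 and varied between libraries. GR there was -0.63 and -0.82 in VEH, 6.04 and 6.23 at PEAK_140, -0.56 and 4.30 at NADIR_180, 4.07 and 3.02 at CONS_140, and 5.77 and 3.61 at CONS_180. PEAK_140 was 6.85 above VEH (adjusted p = 0.0019, limma) and 4.26 above NADIR_180 (adjusted p = 0.023). The higher NADIR_180 library lay above both CONS_140 libraries and within the range of CONS_180. The difference from NADIR_180 was 1.83 to 6.69 with 1 library left out, and its call was lost without NADIR_180 1 (1.83, adjusted p = 0.099), without PEAK_140 1 or 2 (adjusted p = 0.088 for each) and in a fit on the compared groups alone (adjusted p = 0.090).

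The remaining Insig1 regions were weaker in PEAK_140. Those at -31.8 kb (chr4:310236-310862) and -36.7 kb (chr4:305243-305881) were likewise in the peak lists of PEAK_140, CONS_140 and CONS_180, with PEAK_140 means of 5.38 and 5.38. Those at -30.1 kb (chr4:311986-312381) and -32.6 kb (chr4:309490-309885) were in the PEAK_140 list alone, with PEAK_140 means of 3.46 and 4.23. By limma, however, the -32.6 kb region was also called above VEH under constant infusion. The difference was 4.58 at CONS_140 (adjusted p = 0.0017, limma, mean 3.76) and 4.71 at CONS_180 (adjusted p = 0.0016, mean 3.89). At -30.1 kb PEAK_140 was 4.54 above VEH (adjusted p = 0.015, limma), a call that was lost without PEAK_140 1 (adjusted p = 0.082), VEH 1 (adjusted p = 0.052) or VEH 2 (adjusted p = 0.063) and with quantile normalization (1.92, adjusted p = 0.20). The CONS_140 libraries, at 3.26 and -1.11, were 2.16 above VEH (adjusted p = 0.20), and 4.34 without CONS_140 2 (adjusted p = 0.012).

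The promoter region of Insig1 (chr4:341978-342505, centred at -0.06 kb) overlaps the start site and was in the CONS_140 peak list alone. GR there was 0.82 and -1.08 in VEH, -0.78 and -0.63 at PEAK_140, 0.29 and -0.78 at NADIR_180, 3.31 and 0.14 at CONS_140, and -0.07 and 1.59 at CONS_180. Only 1 CONS_140 library stood clear of VEH, and the difference of 1.85 was not called (adjusted p = 0.20, limma), but was at 3.44 without CONS_140 2 (adjusted p = 0.021).

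The only region near Insig2 lay at -5.2 kb, chr13:37292376-37293001, in intergenic sequence, and was in the CONS_180 peak list alone. GR there was -0.87 and -1.04 in VEH, -0.65 and 3.26 at PEAK_140, 2.52 and -0.64 at NADIR_180, 4.21 and 4.36 at CONS_140, and 3.06 and 4.25 at CONS_180. Both pulsatile groups had 1 library near VEH and 1 well above it, whereas all 4 constant libraries were at 3.06 or more.

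For this Insig2 region CONS_140 was 5.24 above VEH (adjusted p = 0.0085, limma) and CONS_180 4.61 above VEH (adjusted p = 0.016). The CONS_180 call was lost without CONS_180 2 (adjusted p = 0.092), VEH 1 (adjusted p = 0.053) or VEH 2 (adjusted p = 0.066), and neither call held with centred or quantile-normalised libraries. PEAK_140 was 2.26 above VEH (adjusted p = 0.15), 0.31 to 4.22 with 1 library left out and called without PEAK_140 1 (4.22, adjusted p = 0.025), and NADIR_180 1.90 above VEH (adjusted p = 0.52). The difference between PEAK_140 and NADIR_180, 0.37 (adjusted p = 0.83), changed sign when single libraries were left out, with -1.22 without NADIR_180 2 and -1.59 without PEAK_140 2.

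**Figure D2:**
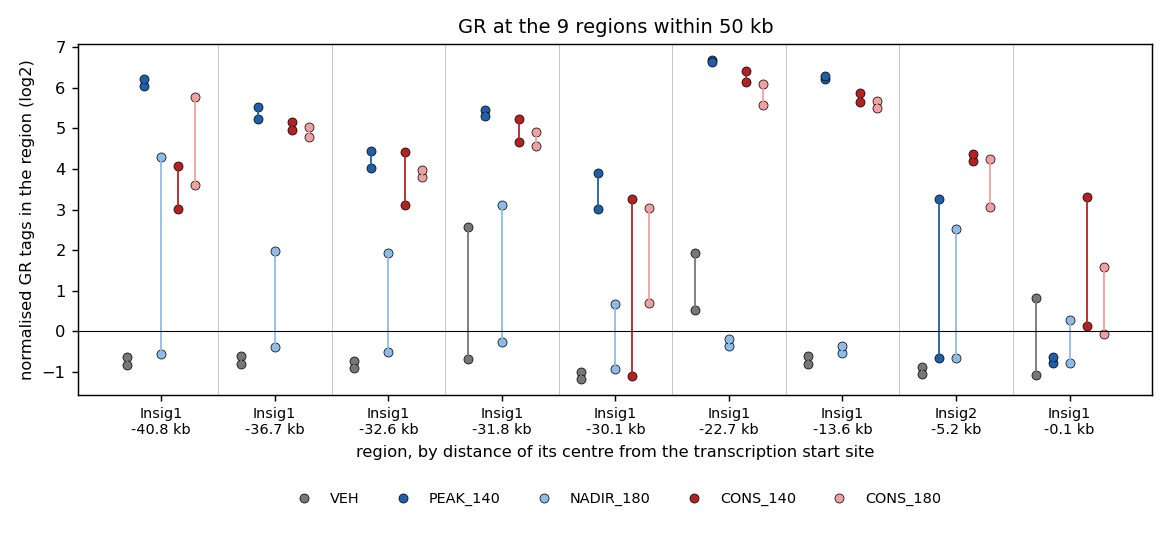
GR (log2 normalised tags, vertical axis) at the 8 Insig1 regions and the Insig2 region, ordered by distance of the centre from the start site in kb. Points are libraries and lines join the 2 libraries of a group. PEAK_140 and the constant groups stand together at -13.6 and -22.7 kb, apart from NADIR_180 and VEH, while at the Insig2 region (-5.2 kb) the PEAK_140 libraries lie at -0.65 and 3.26.

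Counted over the 9 regions, 7 were called higher than VEH at PEAK_140 (78.6% of all GR regions were), 7 at CONS_140 (64.7%) and 7 at CONS_180 (67.9%). At NADIR_180 none was called by limma, where 7.79% of all regions were and 670 of the 3981 had an unadjusted p under 0.05. The regions were therefore called about as often as GR regions in general. The median difference of the Insig1 regions at PEAK_140 was 5.24, beside 4.17 over all regions.

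These counts depend on how libraries are scaled, since the median of all GR regions itself stood 4.17 above VEH at PEAK_140. With each library centred on its own median, which shifted every difference by -4.62, 2 regions were called at PEAK_140, 1 of them higher and 1 lower, 1 at CONS_140 and 0 at CONS_180. With quantile normalization 2 regions were called in each of these comparisons. The shift was -4.11 at CONS_140 and -4.06 at CONS_180, and -1.18 at NADIR_180, so the differences given here are relative to the authors' scaling.

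Both libraries lay above both VEH libraries at 8 of 9 regions for PEAK_140 (88.5% of all regions) and at 6 for NADIR_180 (63.5%). They did so at 7 for CONS_140 (74.7%) and at 8 for CONS_180 (83.6%). These counts take in values under 1 normalised tag, so they do not show GR left at the nadir. At -13.6 kb NADIR_180 counted with -0.53 and -0.35 against -0.60 and -0.79 in VEH. The Insig2 region counted for PEAK_140 with 1 library at -0.65. PEAK_140 was called above NADIR_180 at 7 regions (68.8% of all regions), all near Insig1, and at 4 without PEAK_140 1 or PEAK_140 2. With centred libraries it was called at 2. Both PEAK_140 libraries lay above both NADIR_180 libraries at 7 (81.8%). Between CONS_140 and CONS_180 none of the 9 regions was called by limma, nor any of the 3981 (0%), of which 194 had an unadjusted p under 0.05.

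The time effect in PULS exceeded that in CONS at 4 Insig1 regions (43.6% of all regions). These were -13.6 kb with 6.51 (adjusted p = 0.0032, limma), -22.7 kb with 6.49 (adjusted p = 0.0038), -36.7 kb with 4.43 (adjusted p = 0.015) and -32.6 kb with 3.65 (adjusted p = 0.040). The -32.6 kb call was lost in a fit on the compared groups alone (adjusted p = 0.052) and without CONS_140 2, CONS_180 1 or 2, NADIR_180 2 (2.42), PEAK_140 1 or PEAK_140 2, and the -36.7 kb call without CONS_180 1 (adjusted p = 0.054) or PEAK_140 1 (adjusted p = 0.058). At the Insig2 region the same difference was -0.26 (adjusted p = 0.91), and was 0.33 to 1.69 without CONS_180 1, NADIR_180 1 or PEAK_140 1. The count of 4 fell to 2 without CONS_180 1 or PEAK_140 1, and to 0 with centred libraries. CONS_180 was called above NADIR_180 at 5 regions (49.6%), at 3 without CONS_180 1 or 2 and at 0 with centred libraries. Between PEAK_140 and CONS_140 limma called none of the 9 (0.0502% of all regions), and 560 of all regions had an unadjusted p under 0.05.

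The nearest regions outside the 50 kb window were far off. For Insig1 it was chr4:2501627-2502252, at 2160 kb and nearest to Ube3c, with GR means of 6.61 at PEAK_140 and 0.67 in VEH, and for Insig2 chr13:36097483-36098034, at 1190 kb in an intron of Tmem37, with 1.89 and -1.09. The 9 regions were the same with a window of 100 kb.

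RNA was counted over exons. Insig1 had 75.1, 208 and 80.9 CPM in CONS VEH and 259, 281 and 380 in CONS CORT, and 100, 47.2 and 212 in PULS VEH and 237, 280 and 184 in PULS CORT. The constant groups did not overlap, whereas in PULS 1 vehicle library lay above the lowest CORT library. Here and below, the share of all genes whose RNA groups do not overlap was not counted, so a lack of overlap is a description. The means were 121 ± 74.9 (SD, n = 3) and 307 ± 64.6 for CONS, and 120 ± 84.1 and 234 ± 48.1 for PULS.

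Insig2 had 455, 342 and 573 CPM in CONS VEH and 223, 225 and 187 in CONS CORT, and 411, 193 and 257 in PULS VEH and 193, 245 and 235 in PULS CORT. CONS CORT lay wholly below CONS VEH, and the PULS groups overlapped, 1 vehicle library being level with the lowest CORT library. The means were 457 ± 116 (SD, n = 3) and 212 ± 21.5 for CONS, and 287 ± 112 and 225 ± 27.4 for PULS.

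**Figure D3:**
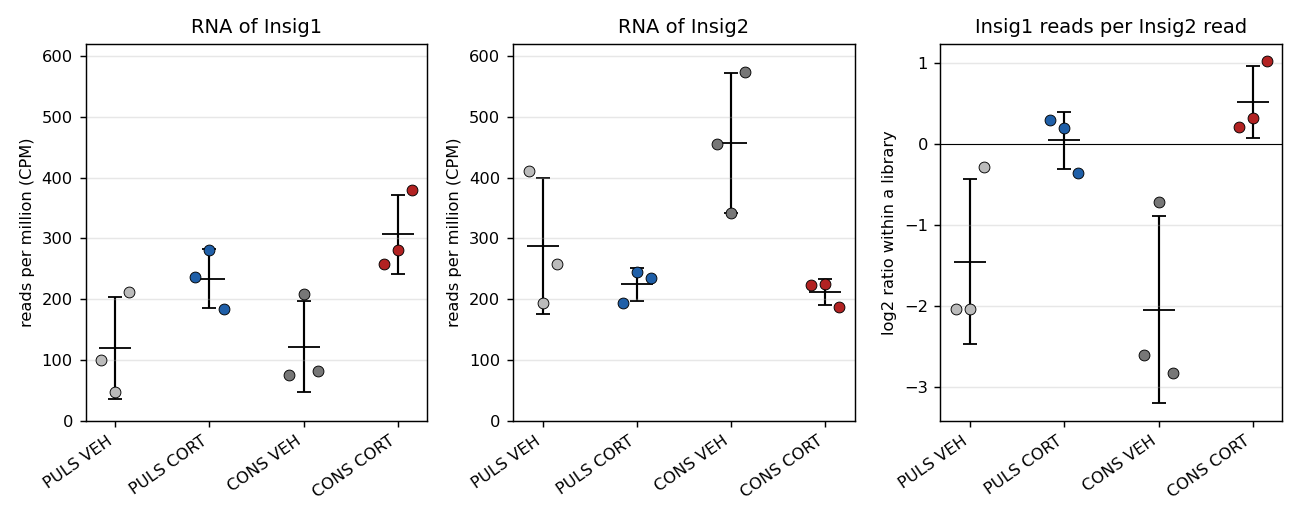
RNA of Insig1 (left) and Insig2 (middle) in CPM, and the log2 ratio of Insig1 to Insig2 reads within a library (right), in the 4 RNA groups at 180 min. Points are the 3 livers of a group, and bars the mean with 1 SD either side. CONS CORT and CONS VEH do not overlap for either gene, and the share of all genes that do likewise was not counted.

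Insig2 RNA was 2.16-fold lower in CONS CORT than in CONS VEH, a log2 fold change of -1.11 (SE 0.23, adjusted p = 0.0035, edgeR quasi-likelihood test), and Insig1 RNA was 2.55-fold higher, 1.35 (SE 0.42, adjusted p = 0.046). Both were called, as were 9.2% of all 14092 genes tested, 4.45% higher and 4.75% lower. The Insig2 call held whichever library was left out, with log2 fold changes of -1.28 to -0.91. The Insig1 call was lost without any 1 of CONS CORT 1, 2 or 3 (1.46, 1.41 and 1.18, adjusted p = 0.067, 0.068 and 0.14) or without CONS VEH 1 or 3 (1.09 and 1.13, adjusted p = 0.15 and 0.17), and with DESeq2 (adjusted p = 0.11), and stood at 1.98 without CONS VEH 2 (adjusted p = 0.0053).

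In PULS neither gene was called, where 4.23% of genes were, 1.79% higher and 2.44% lower. Insig1 differed by 0.97 (SE 0.42, adjusted p = 0.21, edgeR) and Insig2 by -0.36 (SE 0.23, adjusted p = 0.41). Without PULS VEH 3, the highest vehicle library, the Insig1 difference was 1.66 (adjusted p = 0.030). Without PULS VEH 1, the highest vehicle library for Insig2, the Insig2 difference was -0.00 (adjusted p = 0.99).

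The responses to PULS and CONS were not shown to differ. The response in PULS minus that in CONS was -0.38 for Insig1 (SE 0.59, adjusted p = 0.84, edgeR) and 0.75 for Insig2 (SE 0.32, adjusted p = 0.33), where 0.0284% of genes were called (4 by edgeR and 215 by DESeq2). PULS CORT minus CONS CORT was -0.39 for Insig1 (adjusted p = 0.80) and 0.08 for Insig2 (adjusted p = 0.94), where 0.887% were. The vehicle groups differed by -0.01 for Insig1 (adjusted p = 1) and by -0.67 for Insig2 (SE 0.22, adjusted p = 0.40, unadjusted p = 0.0088), so PULS VEH was the lower for Insig2, and 0% of genes were called there by edgeR, with 1286 at an unadjusted p under 0.05 and 22 called by DESeq2.

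Within a library the log2 ratio of Insig1 to Insig2 reads was -2.60, -0.72 and -2.83 in CONS VEH and 0.21, 0.32 and 1.03 in CONS CORT, with no overlap. It was -2.04, -2.03 and -0.28 in PULS VEH and 0.29, 0.19 and -0.35 in PULS CORT, where the lowest CORT liver lay just under the highest vehicle liver. Vehicle livers held more Insig2 than Insig1 reads in 6 of 6 cases, and CORT livers did so in 1 of 6.

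At 180 min the RNA of Insig1 was thus higher than vehicle on average in both patterns (called in CONS alone), at a time when pSer2 Pol2 at the gene was 5.92-fold below VEH at NADIR_180 and 0.25 log2 above it at CONS_180. For Insig2 the RNA was lower in CONS CORT than in CONS VEH, and pSer2 Pol2 at CONS_180 was 2.35-fold below VEH. The references are unlike, since the ChIP VEH came from pulsatile infusion only. Mean Insig2 RNA was 212 CPM in CONS CORT, 457 in CONS VEH and 287 in PULS VEH, and CONS CORT was not tested against PULS VEH. RNA at 140 min was not analysed here.

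The list called INSIG partners holds genes of proteins that act with or around INSIG proteins, the SREBPs and their proteases included. Of its 18 measured members 2 rose and 2 fell in CONS, where 9.2% of all genes were called. In PULS 2 rose and 0 fell, where 4.23% of all genes were called (1 member was called without PULS CORT 1). The median log2 fold changes were -0.01 in CONS and 0.15 in PULS, beside -0.01 over all genes in both. Rnf139, a ubiquitin ligase that binds INSIG proteins, rose by 0.77 in PULS (SE 0.15, adjusted p = 0.0078, edgeR) and by 0.82 in CONS (SE 0.14, adjusted p = 0.0011). Ube2g2, a ubiquitin-conjugating enzyme of protein degradation at the endoplasmic reticulum that was named after its values were seen, rose by 0.72 and 1.33 (adjusted p = 0.010 and 1.1e-05).

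The SREBP genes fell in CONS. Srebf1, which encodes the SREBP of fatty acid synthesis, fell by 1.54 (SE 0.28, adjusted p = 0.0015, edgeR) and differed by 0.14 in PULS (adjusted p = 0.84), and Srebf2, which encodes the SREBP of sterol synthesis, fell by 0.59 (SE 0.16, adjusted p = 0.021). Scap differed by -0.16 in CONS, the cleaving proteases Mbtps1 and Mbtps2 by 0.23 and 0.17, and the ligase Rnf145 by 0.35, none of them called.

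Sterol synthesis and uptake genes fell in CONS in 16 of 22 measured members and rose in 0, with a median of -1.06. In PULS 0 of 22 were called by edgeR or DESeq2, 9 at an unadjusted p under 0.05, with a median of -0.34. Beside this and the RNA lists below, 4.45% of all genes rose and 4.75% fell in CONS, and 1.79% and 2.44% in PULS. With no filter on low counts 4 sterol genes were called in PULS, without PULS CORT 2 there were 2, and without PULS VEH 2 there was 1. Msmo1, a demethylase of the late pathway, fell by 1.79 (adjusted p = 0.00077), Hmgcs1, an early synthase of the pathway, by 1.74 (adjusted p = 0.0010), Mvd, mevalonate decarboxylase, by 1.72 (adjusted p = 0.00077) and Fdft1, squalene synthase, by 1.56 (adjusted p = 0.00077).

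Lipogenesis genes under SREBP-1c fell in CONS in 12 of 14 members, Srebf1 included, with a median of -1.34. Scd, the stearoyl-CoA desaturase, fell by 3.8 (SE 0.79, adjusted p = 0.0039, edgeR), Fasn, fatty acid synthase, by 2.51 (adjusted p = 0.00051) and Acly, ATP citrate lyase, by 1.82 (adjusted p = 0.00096). In PULS 1 of 14 fell, Me1, malic enzyme, which was named after its values were seen, by 0.59 (adjusted p = 0.046), and the list median was -0.16. No gene of the list was called in PULS without PULS CORT 1, 2 or 3 or PULS VEH 1 or 3, and 2 were with no filter.

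In the oxysterol and LXR list of 12 measured genes, Cyp27a1, which makes 27-hydroxycholesterol, rose by 0.74 in PULS (adjusted p = 0.0054, edgeR) and 0.86 in CONS (adjusted p = 0.00048). In CONS 3 members fell, the bile acid enzymes Cyp7a1 by 0.89 (adjusted p = 0.042) and Cyp7b1 by 0.63 (adjusted p = 0.0073), and Lpcat3, a phospholipid acyltransferase, by 0.68 (adjusted p = 0.0054). The 4 calls of this list in CONS became 2 without CONS CORT 1 and 1 without CONS CORT 3.

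In the insulin and fasting list of 11 genes, 7 rose and 0 fell in CONS, with a median of 1.02, and 3 rose and 1 fell in PULS, with a median of 0.12. Igfbp1, an insulin-like growth factor binding protein that insulin lowers, rose by 2.98 in CONS (adjusted p = 5.1e-05, edgeR), Ppargc1a, a coactivator of gluconeogenesis, by 2.93 (adjusted p = 1.8e-07) and Foxo1, a transcription factor held inactive by insulin, by 1.82 (adjusted p = 6.5e-06). In PULS, Foxo1 rose by 0.81 (adjusted p = 0.015), Ppargc1a by 0.98 (adjusted p = 0.012) and Pck1, named after its values were seen, by 1.00 (adjusted p = 0.0031), whereas Irs1, likewise, fell by 1.00 (adjusted p = 0.019). These 4 calls in PULS became 2 without PULS CORT 1, PULS VEH 1 or PULS VEH 2.

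Of 6 nuclear receptor genes tied to the Insig genes, 3 rose in CONS and 1 in PULS, where 2 were called by DESeq2, with no filter or without PULS CORT 3. Nr1i2, the pregnane X receptor, rose by 1.62 in CONS (adjusted p = 1.2e-06, edgeR) and 0.97 in PULS (adjusted p = 0.00067). Nr1i3, the constitutive androstane receptor, rose by 1.03 (adjusted p = 0.013) and Ppara by 1.5 (adjusted p = 0.0020) in CONS. Over all lists 13 of 81 genes rose and 32 fell in CONS, where 4.45% of all genes rose and 4.75% fell. In PULS 7 rose and 2 fell, where 1.79% and 2.44% of all genes did, and 5 were called without PULS CORT 1. The responses differed between patterns for 1 of 81, Ppargc1a, with -1.95 (SE 0.29, adjusted p = 0.032, edgeR), where 0.0284% of all genes were called.

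**Figure D4:**
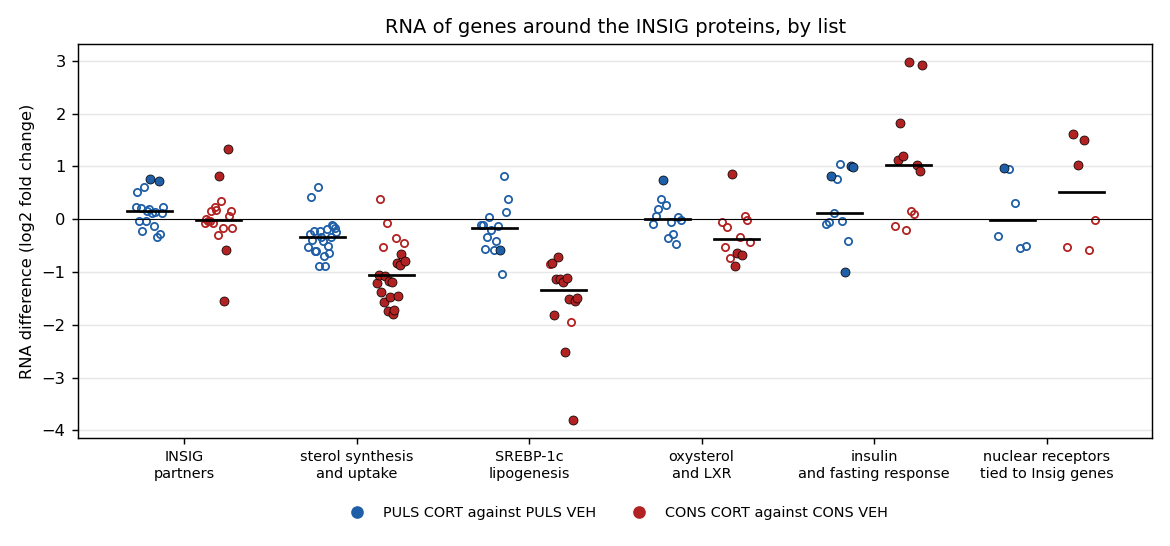
RNA log2 fold change (CORT against VEH of the same pattern, vertical axis) of the genes of each list. Each point is a gene, filled where called, and black bars are list medians. In CONS the sterol and lipogenesis lists lie below 0 (medians -1.06 and -1.34) and the insulin and fasting list above it (median 1.02).

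For pSer2 Pol2 a listed gene was counted once, by its called region with the greatest fold change, and by the region with the highest mean if none was called. At PEAK_140, 2 of 83 listed genes rose and 12 fell, while 0.382% of all genes rose and 0.636% fell. Of the sterol list of 23, 7 fell, among them Hmgcs1 by 4.12 (SE 0.51, adjusted p = 0.0037, limma), Cyp51 by 3.56 (adjusted p = 0.034) and Fdps by 3.30 (adjusted p = 0.027).

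Of the lipogenesis list of 13, 5 fell at PEAK_140, among them the desaturase genes. Fads2 fell by 6.81 (SE 0.88, adjusted p = 0.0046, limma), Fads1 fell by 6.03 (adjusted p = 0.011) and Fasn fell by 4.09 (adjusted p = 0.015). Cyp27a1 rose by 1.86 (adjusted p = 0.037). None of the 18 INSIG partners was called by limma in any group against VEH, with 1 to 3 of them at an unadjusted p under 0.05. Srebf1 differed by -1.68 (adjusted p = 0.19). The 14 calls became 2 without PEAK_140 1 or 2, and 0 without VEH 1 or 2.

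At NADIR_180 limma called 0 of the 83 listed genes, with 17 at an unadjusted p under 0.05. Over all genes with tags 0.00606% were called, and 555 regions had an unadjusted p under 0.05. Between PEAK_140 and NADIR_180, where 0.509% of genes were called, 3 listed genes were. Of these, Sc5d and Gpam, which were named after their values were seen, stood at -2.11 and -2.26 (adjusted p = 0.047 and 0.040, limma).

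At CONS_140, 6 listed genes rose and 4 fell, while 0.648% of all genes rose and 0.176% fell. Foxo1 rose by 2.57 (adjusted p = 0.013, limma), Cyp27a1 by 2.48 (adjusted p = 0.0089), Cyp7a1 by 2.25 (adjusted p = 0.021), Nr1i3 by 2.10 (adjusted p = 0.016), Nr1i2 by 1.89 (adjusted p = 0.025) and Igfbp1 by 1.60 (adjusted p = 0.020). Fads2 fell by 5.32 (adjusted p = 0.017), Fads1 by 4.94 (adjusted p = 0.041), Hmgcs1 by 3.68 (adjusted p = 0.0066) and Fdps by 2.82 (adjusted p = 0.050). The 10 calls became 24 without CONS_140 2, 3 without CONS_140 1 or VEH 1, and 0 without VEH 2. At CONS_180, where 0.236% of all genes were called, 1 listed gene was, Fads2, which fell by 6.97 (adjusted p = 0.0089), and it was not called when any 1 library of these groups was left out.

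The split of listed genes moved with the scaling. At CONS_140, 60% of the called genes were higher, 42.9% with each library centred on its median (9 higher, 12 lower) and 34.8% with quantile normalization (8 and 15), the centring having moved the median of all genes by -0.14. At PEAK_140 the share higher was 14.3%, and 26.1% with quantile normalization (6 and 17). At CONS_180 it was 0% of 1 call, 44.4% of 9 calls with centring and 50% of 10 calls with quantile normalization.

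**Figure D5:**
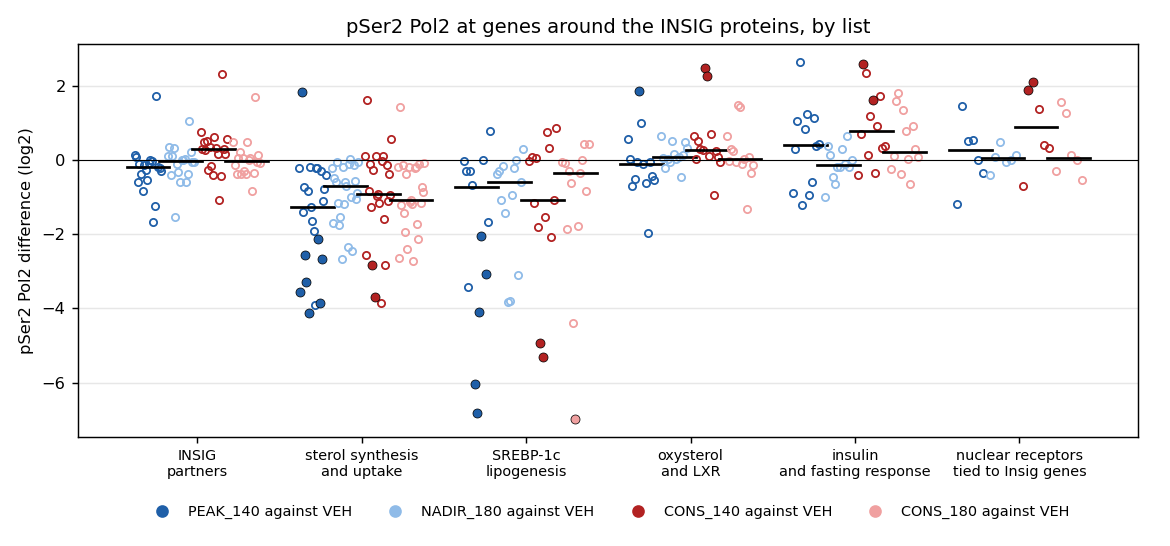
pSer2 Pol2 log2 difference from VEH (vertical axis) of the genes of each list in the 4 CORT groups. Each point is a gene, filled where called, shown by its called region with the greatest fold change or else the region with the highest mean, and black bars are list medians over the regions with the highest mean. The sterol and lipogenesis medians lie below 0 in all 4 groups, with the most called genes at PEAK_140.

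Within 250 kb of Insig1 lay AABR07058985.2, Htr5a, En2 and AABR07058998.1, all at 0 for pSer2 Pol2 in every library and at 0 to 7 RNA reads. Near Insig2, AC128353.1, Htr5b and AABR07020736.1 were at 0 as well. Ddx18, a helicase gene 249 kb away, had pSer2 Pol2 values of 3.33 to 4.23 over the 10 libraries, and Ccdc93, 113 kb away, of 1.26 to 1.92, both narrow beside the range of Insig2. Their RNA differed by 0.46 and -0.09 in PULS and by 0.36 and 0.04 in CONS.

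By Pearson's r of pSer2 Pol2 over the 10 libraries, among 4477 genes above the median level that varied by at least 1 log2 unit, the genes most like Insig1 were Acsl4 (0.965), Tat (0.940), Cyp2c22 (0.934), Alas1 (0.926) and Got1 (0.901). Those most like Insig2 were Cyp2a1 (0.985), Slc22a8 (0.983), Idh1 (0.970), Zfp36l1 (0.970) and Mid1ip1 (0.969). The members' own r with each other was -0.426. By RNA over the 12 libraries, among 7278 genes, Zfp189 (0.918), Errfi1 (0.912), Mknk2 (0.907), Prkar2a (0.898) and Arg1 (0.893) were most like Insig1, and Abca4 (0.912), Lin37 (0.903), Fam102a (0.898), Aldh5a1 (0.879) and Paqr7 (0.878) most like Insig2, with -0.516 between the members. No gene was on both the pSer2 Pol2 and the RNA list of a member. The genes of a list share libraries, depth and groups, and these values are a description.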

How the data were processed

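ChIP-seq for GR and pSer2 Pol2 (2 pooled libraries per group) and RNA-seq (3 livers per group) were analysed from 42 samples, inputs included. The authors trimmed ChIP reads (Trimmomatic 0.36), aligned them to rn6 with bowtie2, removed duplicates and, with HOMER 4.9.1, counted tags, subtracted input and deposited moderated log2 values, which are shrunk where tags are few. For GR the methods give scaling to tags within regions and the file header to total tags. The positions of regions and peaks are as the authors deposited them, and peaks were called over input and kept at reproducible positions of the replicates. The RNA values are raw read counts per gene deposited by the authors (featureCounts 1.6.2, exons, Ensembl), from a stranded total RNA kit. The strand setting of the counting and the aligner's settings were not given in the sources used here, so reads of antisense or overlapping genes cannot be separated. Tables and columns of the authors' own comparisons (fold changes, p-values) were not used, 0 columns of per-sample values were left out, and 0 rows of the count table named no gene.

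From these values, RNA was fitted over all 12 libraries with edgeR 4.0.16 (TMM, quasi-likelihood, genes with over 10 reads in all), and GR and pSer2 Pol2 over all 10 libraries each with limma 3.58.1 (variance trend) in R 4.3.3, with Benjamini-Hochberg adjustment over all genes or regions. Calls needed an adjusted p under 0.05 and over 1.5-fold. Tables were summarised in Python 3.11.15 with pandas 2.3.3, and each fit was tested on simulated data. Nothing states that RNA livers or ChIP pools shared no preparation, so p-values measure the spread between these samples. Depth limits weak GR regions most, and counting error alone is the least error of a value.

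The members, lists and rules were chosen with earlier results of these data known. Named were the members, 9 fixed INSIG partners, up to 4 genes per other list with the largest called change in RNA and likewise in pSer2 Pol2 against VEH, neighbours within 250 kb and the 5 genes most like each member, and other genes are marked as named after their values were seen. Some named genes and 1 motif are not reported here. Alternatives were DESeq2 1.42.0, RLE scaling, no filter, fits on the compared groups only, centred or quantile-normalised libraries, no variance trend, a replicate block, a 100 kb window and leaving out each library.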

Additional observations from a re-analysis of the deposited data

Results flagged for a closer look

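The GR time effect (140 min minus 180 min) differed between pulsatile and constant infusion at 4 Insig1 regions by a test of the difference itself (limma): 6.51 at -13.6 kb (adjusted p = 0.0032), 6.49 at -22.7 kb (adjusted p = 0.0038), 4.43 at -36.7 kb (adjusted p = 0.015) and 3.65 at -32.6 kb (adjusted p = 0.040), where 43.6% of all GR regions were called higher. None of the 4 was called with libraries centred on their medians. The -32.6 kb call was also lost in a fit on the compared groups alone (adjusted p = 0.052) and without any 1 of CONS_140 2, CONS_180 1, CONS_180 2, NADIR_180 2 (2.42), PEAK_140 1 and PEAK_140 2, and the -36.7 kb call without CONS_180 1 or PEAK_140 1.

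For pSer2 Pol2 the pulsatile libraries moved in opposite directions for the members. Insig1 differed by 3.18 between PEAK_140 and NADIR_180, and both PEAK_140 libraries lay above both NADIR_180 libraries. The Insig2 time effect in PULS minus that in CONS was -3.44, since PEAK_140 lay below NADIR_180 in every library while CONS_140 lay above CONS_180 in every library. The genes were chosen by these values, so these differences were not tested.

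Among the listed genes, the RNA response of Ppargc1a to CORT in PULS minus that in CONS was -1.95 (SE 0.29, adjusted p = 0.032, edgeR). Ppargc1a stood at 17.8, 20.6 and 29.9 CPM in PULS VEH, 58.5, 32.6 and 41.8 in PULS CORT, 23.9, 17.4 and 21.9 in CONS VEH, and 163, 148 and 175 in CONS CORT, so both CORT groups lay above their own vehicle in all 3 livers.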

How the results depend on the processing

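For RNA, DESeq2 gave 1.34 for Insig1 in CONS (adjusted p = 0.11, not called). Leaving out 1 library gave, for Insig1, 0.59 to 1.66 in PULS, 1.09 to 1.98 in CONS, -1.01 to 0.32 for the difference of responses, -0.71 to 0.62 between vehicles (0.10 without PULS VEH 1, 0.37 without PULS VEH 2, 0.62 without CONS VEH 2) and -0.54 to -0.20 between CORT groups, and for Insig2 -0.57 to -0.00, -1.28 to -0.91, 0.54 to 1.11, -1.02 to -0.45 and 0.00 to 0.18 in the same order. Of 120 RNA alternatives 109 kept direction and call.

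For GR, centring changed the counts of called regions to 2 (PEAK_140), 1 (CONS_140), 0 (CONS_180), 2 (PEAK_140 against NADIR_180), 0 (time effect) and 0 (CONS_180 against NADIR_180), quantile normalization to 2 in each, and a fit on the compared groups to 3 in the last. Leaving out 1 library gave 5 to 7, 0 to 2 (NADIR_180), 5 to 9, 5 to 6, 4 to 5, 2 to 5 and 3 to 6, 0 to 0 between constant times and 0 to 1 for PEAK_140 against CONS_140. In a group of 2 the lone library was then assumed to vary like the other groups. Signs turned, under centring and quantile normalization, at the promoter for CONS_140 (-2.26, -0.64), at -13.6 kb for NADIR_180 (-0.93, -0.39), and at the Insig2 region for PEAK_140 (-2.35, -0.32) and for PEAK_140 against NADIR_180 (-3.07, -1.74), and under centring alone at -30.1 kb for PEAK_140 (-0.07) and CONS_140 (-1.96). The last was -0.03 to 4.34 with 1 library left out, and the Insig2 region -1.59 to 2.32 (PEAK_140 against NADIR_180) and -2.22 to 1.69 (time effect, with 0.33 without CONS_180 1 and 1.32 without NADIR_180 1). The cause was not tested.

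For pSer2 Pol2 at Insig1, quantile normalization gave 0.41 (CONS_140), and both scalings 0.25 between constant times, with a time effect of 3.03 when centred. At Insig2 quantile normalization gave -2.73 (PEAK_140), -0.95 (CONS_140), 0.26 (constant times) and -2.89 (time effect, -3.16 centred). With 1 library left out, Insig1 gave 0.50 to 0.73, -2.67 to -2.46, 0.53 to 0.84 and 0.11 to 0.39 against VEH, 3.07 to 3.29 between pulse times, 0.28 to 0.59 between constant times, 2.59 to 2.90 for the time effect and 2.67 to 2.96 for CONS_180 against NADIR_180, and Insig2 gave -3.21 to -2.86, -0.53 to -0.04, -0.72 to -0.38, -1.41 to -1.06, -3.00 to -2.51, 0.57 to 0.80, -3.69 to -3.20 and -1.20 to -0.71.

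For the lists, no filter gave 16 RNA calls in PULS (9 higher, 7 lower). In pSer2 Pol2 centring gave 23, 2, 21 and 9 calls in the 4 groups, quantile normalization 23 at the peak, 23 at CONS_140 and 10 in the later constant group, and no variance trend 6 at the peak and 0 in CONS_180. With 1 library left out the RNA counts were 5 to 9 and 36 to 44, and the pSer2 Pol2 counts 0 to 2, 0 to 0, 0 to 24 and 0 to 0.

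Samples with the same replicate number deviated together by r of -0.027 to 0.072 (GR), 0.157 to 0.477 (pSer2 Pol2) and -0.049 to 0.081 (RNA), nothing states that a number marks a shared batch, and each ChIP comparison holds 2 numbers, so the numbers were not taken as pairs. With the replicate block Insig1 RNA was 1.01 in PULS and 1.36 in CONS (adjusted p = 0.050), Insig2 RNA -0.31 and -1.09 (adjusted p = 0.0043), and no call of a member's RNA changed. Listed RNA calls were 9 in PULS, as without the block, and 44 in CONS against 45. VEH has no replicate number, so the ChIP block covered the 8 CORT libraries: it gave 6 GR regions against 7 for PEAK_140 minus NADIR_180, 5 against 4 for the time effect and 5 as before for CONS_180 minus NADIR_180, left the members' pSer2 Pol2 differences as they were (3.18 and -2.76 between pulse times), and gave 3 listed pSer2 Pol2 genes between pulse times, 2 higher and 1 lower, against 1 and 2.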
